A study of Mus musculus with 12 samples.

Results

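Genes for the ion channels and ion-channel receptors of nerve cells were examined for TET2 binding in cultured mouse blood cells, as a contrast to the blood cell genes such cells use. The set comprised all protein-coding genes whose symbol begins with Kcn (potassium channels and their subunits), Gabr (GABA-A receptors), Gria (AMPA receptors), Grin followed by a digit (NMDA receptors) or Grik (kainate receptors), together with the voltage-gated sodium channel genes named Scn with a number and a or b. It held 143 of the 21887 protein-coding genes on chromosomes 1 to 19, X and Y. Membership rested on symbols alone and used no measured value.

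Binding was measured by chromatin immunoprecipitation sequencing (ChIP-seq), in which an antibody pulls down a protein together with the DNA it is attached to, and sequencing shows where that DNA comes from. The myeloid culture consisted of hematopoietic cells immortalized in vitro with AML1-ETO, a leukemia fusion protein delivered by the MigR1 retroviral vector, and its wild-type samples were Tet2fl/fl, with loxP sites in an intact Tet2 gene. The AML culture consisted of acute myeloid leukemia cells of genotype Npm1+/cA and Fl3+/ITD (as the labels spell the Flt3 allele), with no transgene. Knockout samples were Tet2-/- on the same backgrounds. The TET2 antibody, raised against the N-terminal part of the protein, was used on 8 of the 12 libraries, 2 wild-type and 2 knockout in each culture, and each culture also gave 1 input and 1 IgG library from cells with intact Tet2 (4 libraries in all). All cultures received stem cell factor (50 ng/ml), interleukin 3 (10 ng/ml) and interleukin 6 (10 ng/ml), so every value belongs to cytokine-driven cells and not to tissue. The labels do not give the number of animals or clones behind a culture, or the age of the animals.

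The authors deposited 1 list of TET2 sites per culture, with a chromosome, a start and an end for each site. A list gives no height, score or read count and no value for any library. The depth behind a site is therefore unknown, no value below has a replicate error, and wild-type could not be compared with knockout. The lists held 7002 AML sites and 19706 myeloid sites, or 6895 and 18822 after overlapping sites of a list were merged. A site was assigned to the gene whose start or end lay nearest to its midpoint, within 100 kb. This gave 6086 AML and 17141 myeloid sites with a gene. As a check of the cell type, 12 genes of myeloid cells, among them Spi1, Mpo and Itgam, had 27 AML and 50 myeloid sites, and 10 and 12 of them had at least 1. Of 6 genes that mark neurons, 0 had a site in the AML list (all genes 18.6%) and 2 (33.3%) in the myeloid list (all genes 40.0%), so these 6 genes alone show little.

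TET2 oxidizes 5-methylcytosine in DNA and is among the genes most often mutated in myeloid blood cancers. Potassium channels let potassium leave the cell and so hold or restore the resting voltage of the membrane, sodium channels open the action potential, AMPA, NMDA and kainate receptors carry fast excitation by glutamate, and GABA-A receptors carry fast inhibition. Most of these proteins are known from neurons, muscle and heart, but a few potassium channels also work in leukocytes, where they set the driving force for calcium entry. Genes of the nervous system tend to be long and to have few neighbours. The set showed this: the median gene was 48.0 kb long, against 17.2 kb for all genes.

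The promoter windows of these genes that lay under a TET2 site, 5 in number, are shown first because they are the places where binding met an annotated start. Promoter windows from RefSeq (build GRCm38.p6) run from 250 bases before to 50 bases after a start and existed for 104 of the 143 genes, 135 windows in all. Only the 250 bases before each start are printed, in the direction of transcription. Capitals mark matches on either strand to TGTGGT (the core bound by RUNX factors), GGAAGT (ETS factors), TTGCNNAA (C/EBP factors) or TGANTCA (AP-1). None of the matches of these motifs overlapped another.
Kcnn4, chr7:24370013-24370262, plus strand: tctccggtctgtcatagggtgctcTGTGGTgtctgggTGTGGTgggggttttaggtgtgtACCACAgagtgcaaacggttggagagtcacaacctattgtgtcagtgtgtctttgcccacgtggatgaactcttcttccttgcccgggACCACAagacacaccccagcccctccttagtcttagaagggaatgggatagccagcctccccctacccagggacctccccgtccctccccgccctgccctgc
Kcne3, first start, chr7:100176420-100176669, plus strand: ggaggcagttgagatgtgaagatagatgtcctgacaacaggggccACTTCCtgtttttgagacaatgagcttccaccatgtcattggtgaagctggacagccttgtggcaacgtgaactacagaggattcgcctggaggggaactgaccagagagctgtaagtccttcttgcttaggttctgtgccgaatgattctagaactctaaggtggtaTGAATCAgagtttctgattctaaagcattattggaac
Kcne3, second start, chr7:100178433-100178682, plus strand: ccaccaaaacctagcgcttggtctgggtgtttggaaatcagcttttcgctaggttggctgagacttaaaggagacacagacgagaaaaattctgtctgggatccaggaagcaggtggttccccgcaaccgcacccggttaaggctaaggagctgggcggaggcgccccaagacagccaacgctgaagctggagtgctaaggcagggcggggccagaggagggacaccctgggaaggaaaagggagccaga
Kcnj2, chr11:111065914-111066163, plus strand: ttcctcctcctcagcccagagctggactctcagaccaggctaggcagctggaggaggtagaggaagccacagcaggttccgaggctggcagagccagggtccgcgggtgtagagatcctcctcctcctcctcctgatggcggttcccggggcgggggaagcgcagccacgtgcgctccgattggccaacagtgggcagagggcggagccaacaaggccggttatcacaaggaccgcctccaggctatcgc
Kcnab2, an internal start, chr4:152448856-152449105, minus strand: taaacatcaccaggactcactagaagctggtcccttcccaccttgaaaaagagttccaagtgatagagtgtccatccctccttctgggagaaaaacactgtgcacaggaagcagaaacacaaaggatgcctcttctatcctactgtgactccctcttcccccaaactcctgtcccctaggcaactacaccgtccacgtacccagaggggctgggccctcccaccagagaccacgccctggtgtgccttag

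The Kcnn4 window held 4 RUNX matches, at positions -226, -213, -190 and -102, counted back from the start. TGTGGT occurred at least once in 15.0% of all 21263 promoter windows and 4 or more times in 6 of them (0.0282%), the Kcnn4 window included. That higher count was looked up after the Kcnn4 sequence had been seen. The first Kcne3 window held 1 ETS match at -205 and 1 AP-1 match at -37. ETS matches were in 24.8% of all windows, AP-1 matches in 6.99% and C/EBP matches in 10.2%. The other 3 windows held no match. The 5 windows carried 3 to 18 CpG dinucleotides, with a median of 6, where the 4051 windows of all genes under a myeloid site had a median of 23.0.

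All 5 windows lay under myeloid sites and none under an AML site. They were 3.7% of the 135 windows of the set (exact 95% interval 1.21 to 8.43), against 19.1% of all windows under a myeloid site. Under AML sites there were 0 of 135, which allows a share of up to about 2.22%, against 1.74% of all windows. This limit is 3 of 135, an approximate 1-sided 95% limit and not an exact interval. The AML value was thus too low everywhere for a difference to be detectable.

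Across whole genes, TET2 sites were found at 41 of the 143 channel and receptor genes (28.7%, against 42.1% of all protein-coding genes). In the AML list 21 had a site, or 14.7% (9.33 to 21.6), against 18.6% of all genes. In the myeloid list 39 had a site, or 27.3% (20.2 to 35.3), against 40.0% of all genes. Sites in both lists occurred at 19 of them (all genes 16.6%), in the AML list alone at 2 (2.03%) and in the myeloid list alone at 20 (23.4%). The remaining 102 genes had none. Because the set was proposed with results of these data known, its shares are set beside those of all genes as a description and were not tested.

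The number of sites was then set against the sequence each gene offers. A gene's territory is the stretch of sequence within 100 kb whose nearest gene end belongs to that gene. Channel and receptor genes made up 0.653% of genes and 1.27% of all territory, but received 0.509% of assigned AML sites and 0.391% of assigned myeloid sites. There were 31 AML sites (exact Poisson 95% interval 21.1 to 44.0) where an even spread over territory would give 77.2. There were 67 myeloid sites (51.9 to 85.1) where it would give 217. The ratios were 0.402 (0.273 to 0.570) and 0.308 (0.239 to 0.391). These intervals cover counting error of sites only, and neighbouring sites are not independent. The even spread is a simplification: of all assigned sites, 9.99% (AML) and 24.8% (myeloid) lay within 1 kb of a gene end. The median territory was 119 kb in the set and 46.4 kb over all genes. Expected numbers, here and by family below, were not adjusted for this.

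Genes with large territories made up much of the set. Of the 64 genes in the largest of 5 equal classes of territory size (129 to 400 kb), 15.6% were bound in the AML list and 23.4% in the myeloid list, against 31.4% and 48.9% of all genes in that class. In the next class down, the 35 genes had shares of 25.7% and 42.9%, against 25.4% and 48.5%. The 13 genes in the lowest class had no site in either list, where 5.71% and 26.1% of all genes did. Genes of the set with a site had a median territory of 124 kb and those without one 110 kb.

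**Figure D1:**
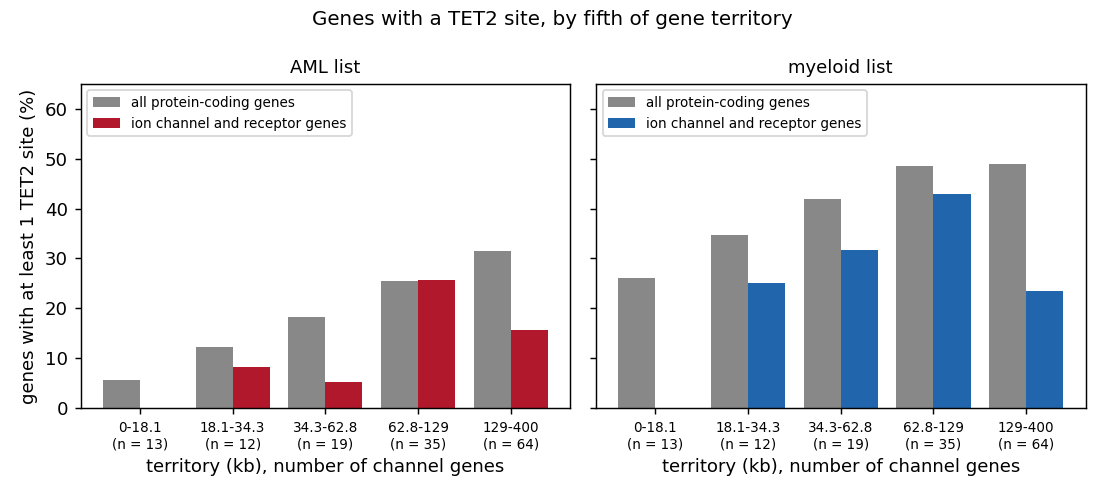
Share of genes with at least 1 TET2 site (%) in each of 5 equal classes of gene territory (kb), for all protein-coding genes (grey) and the channel and receptor genes (coloured; n is their number), by list. In the largest class the coloured bars stand at 15.6% and 23.4%, against 31.4% and 48.9% for all genes.

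A few potassium channel genes had 3 or more sites, but such genes were about as frequent as elsewhere in the genome, or less so. Of the set, 3 genes had 3 or more AML sites, or 2.10% (all genes 2.03%), and they held 9 of the 31 AML sites. In the myeloid list 9 genes had 3 or more, or 6.29% (all genes 9.02%), and the 3 richest held 15 of the 67 sites. Among genes with any site the median number was 1.00 in both lists, within the set and over all genes.

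**Figure D2:**
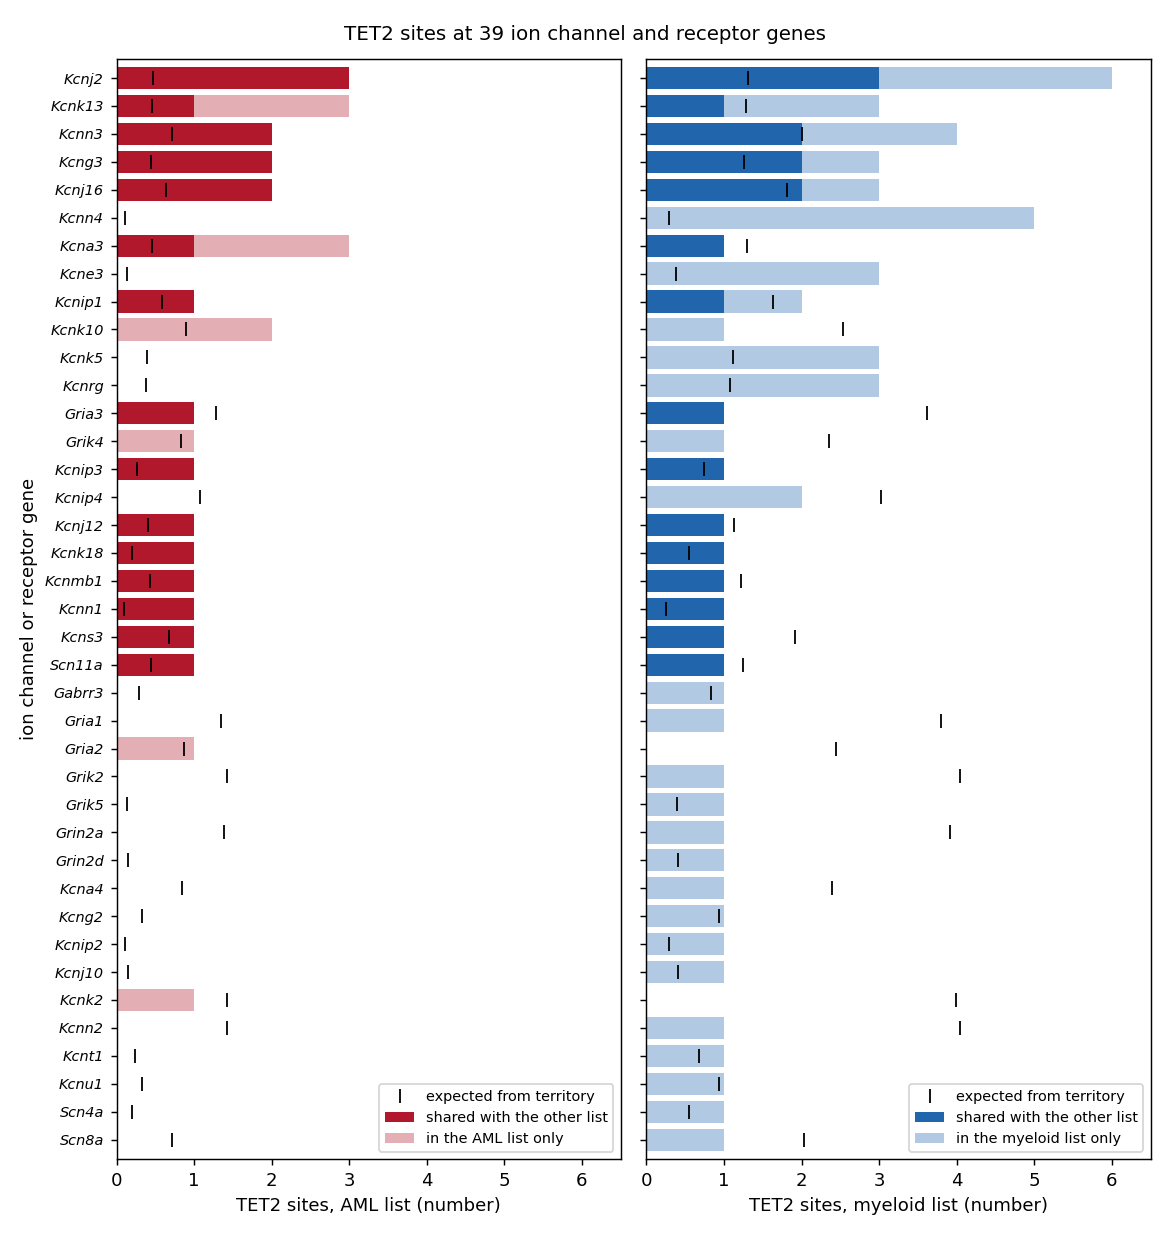
Number of TET2 sites at 39 of the 41 channel and receptor genes with any site, in the AML list (left) and the myeloid list (right). Dark bars are sites shared by both lists, pale bars sites of 1 list, and black ticks the number expected from the gene's territory. Kcnj2 leads with 3 AML and 6 myeloid sites, and Kcnn4 has 5 myeloid sites and 0 AML sites.

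Inward rectifiers (Kcnj) pass potassium more easily into than out of the cell and hold the membrane near its resting voltage. Of 15 genes, 3 carried AML sites (20.0%, all genes 18.6%) and 4 carried myeloid sites (26.7%, all genes 40.0%). Their 6 AML sites equalled the 5.94 expected within counting error, and their 11 myeloid sites stood beside 16.7 expected (5.49 to 19.7).

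Kcnj2, which encodes the inward rectifier Kir2.1, known also from macrophages, had more sites than any other gene of the set. The gene spans positions 111066164 to 111076825 of chromosome 11. There were 3 AML sites (0.619 to 8.77; 0.465 expected) and 6 myeloid sites (2.20 to 13.1; 1.31 expected), and all 3 AML sites were shared. One myeloid-only site covered the start, with its midpoint 0.120 kb upstream. The other 5 myeloid sites lay past the end of the gene, from 1.49 to 25.1 kb away, in a row that included the 3 shared sites at 1.49, 20.1 and 25.1 kb. The start was thus bound in the myeloid list alone, as were the downstream positions at 12.3 and 16.3 kb. The other 3 downstream sites were in both lists. Kcnj16, its neighbour, encodes an inward rectifier of kidney and glia. It had 2 AML and 3 myeloid sites, all upstream and intergenic, and the 2 AML sites (77.4 and 99.5 kb away) were shared.

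Kcnj12 (Kir2.2 of heart and muscle) had 1 shared site in its body, 7.44 kb from an end. Kcnj10, which encodes Kir4.1 of glial cells, had 1 myeloid-only site in its body. The other 11 Kcnj genes had none.

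Calcium- and sodium-activated channels open as the ion rises inside the cell. Of 8 genes, 2 carried AML sites (all genes 18.6%) and 6 carried myeloid sites (all genes 40.0%). This myeloid share was the highest among families of more than 5 genes, but it rests on 8 genes. By number of sites the family did not exceed its territory. It had 13 myeloid sites (6.92 to 22.2; 15.2 expected) and 3 AML sites (0.619 to 8.77; 5.41 expected).

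Kcnn4 encodes KCa3.1, the calcium-activated channel of red cells, lymphocytes, macrophages and mast cells. It occupies positions 24369826 to 24385212 of chromosome 7, with a small territory of 29.3 kb. It had 5 myeloid sites (1.62 to 11.7) where 0.296 were expected, and 0 AML sites, where only 0.105 were expected. The first of the 5 covered the start whose upstream sequence holds the 4 RUNX matches printed above. Further sites lay in the body 2.7 and 4.14 kb from an end, and past the gene end at 2.12 and 4.48 kb. The most distant lay 7.82 kb from Smg9, the next gene. Kcnn4 was the single gene of the set with at least 5 unshared sites, the minimum for a test between the lists. Its 0 AML-only and 5 myeloid-only sites gave an adjusted p of 1.00 against all other sites (two-sided Fisher's exact test, 344 genes). Since AML-only sites were 11.6% of all unshared sites, 5 sites cannot show a lean to the myeloid list in this test. Over all 344 genes 0.872% passed that test, and 5.81% had an unadjusted p under 0.05.

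Kcnn3 encodes the small-conductance channel SK3 and spans positions 89520164 to 89672494 of chromosome 3. It had 2 AML and 4 myeloid sites, all in its body (0.713 and 2.01 expected). A group of 3 myeloid sites stood together 54.3 to 58.8 kb from the start, and the 2 AML sites coincided with 2 of these. Kcnn1 (SK1) had 1 shared site in its body, 10.9 kb from an end, with 0.0915 AML and 0.258 myeloid sites expected. Kcnn2 (SK2), Kcnt1 (a sodium-activated channel) and Kcnu1 (a sperm channel) had 1 myeloid-only site each. That of Kcnu1 was 0.0480 kb from an end of the gene but also 0.885 kb from an end of Ash2l, a gene of a histone methyltransferase complex, so its assignment is uncertain.

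Tandem-pore channels (Kcnk) are open at rest and set the leak of potassium. Of 14 genes, 4 carried AML sites (28.6%, all genes 18.6%) and 4 carried myeloid sites (28.6%, all genes 40.0%). The family had 7 AML sites (2.81 to 14.4) for 5.57 expected and 8 myeloid sites (3.45 to 15.8) for 15.7 expected. Of the 7 AML sites 2 were shared, against 72.6% of all assigned AML sites, and 2 of the others lay within 1 kb of a myeloid site (both at Kcnk13).

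Kcnk13 encodes THIK-1, a leak channel known from microglia. It spans positions 99963149 to 100062682 of chromosome 12 and had 3 AML and 3 myeloid sites, all in its body (0.456 and 1.28 expected). One pair overlapped, about 42.4 kb from the start. An AML-only site lay 0.868 kb from the nearest myeloid site, and another AML-only site lay 0.275 kb from a myeloid-only one. When sites within 1 kb counted as shared, both joined the shared class. The third myeloid site, found in that list alone, lay 5.32 kb from the nearest AML site. When noncoding genes and pseudogenes also competed for sites, Kcnk13 kept no site in either list.

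Kcnk10 (TREK-2, opened by stretch and lipids) had 2 AML-only sites and 1 myeloid-only site, all intergenic and 54.0 to 60.5 kb beyond its end. Kcnk18 had 1 shared site 11.3 kb downstream. Kcnk2 (TREK-1) had 1 AML-only site 88.7 kb downstream and 0 myeloid sites, where 3.99 were expected. Kcnk5, which encodes TASK-2, known from kidney and T cells, had 3 myeloid-only sites, 2 of them in its body (1.11 expected).

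**Figure D3:**
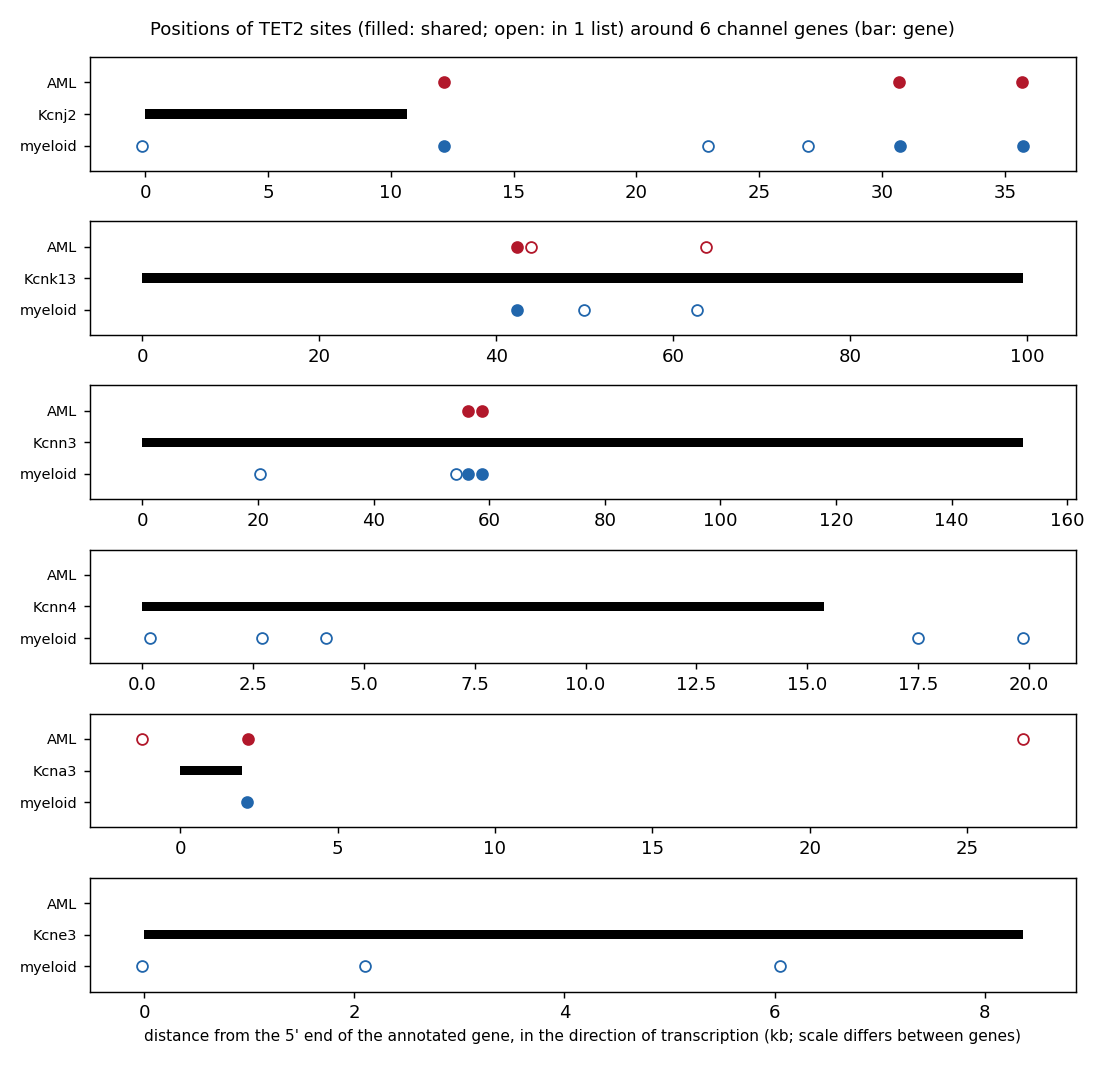
Midpoints of TET2 sites of the AML list (red, top row) and the myeloid list (blue, bottom row) along 6 channel genes, in kb from the 5′ end of the gene (black bar) in the direction of transcription, with a separate scale for each gene. Filled points are shared sites and open points sites of 1 list. Sites cover the start of Kcnj2, Kcnn4 and Kcne3 in the myeloid list alone, and Kcnk13 and Kcnn3 are bound inside the gene.

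Voltage-gated potassium channels end the action potential and were the largest family, with 40 genes. In the AML list 5 were bound (12.5%, all genes 18.6%), and in the myeloid list 7 (17.5%, all genes 40.0%). There were 8 AML sites (3.45 to 15.8) for 20.8 expected and 11 myeloid sites (5.49 to 19.7) for 58.6 expected.

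Kcna3 encodes Kv1.3, the voltage-gated channel of T cells and macrophages, and spans positions 107036162 to 107038129 of chromosome 3. It had 3 AML sites (0.619 to 8.77; 0.460 expected) and 1 myeloid site. The 1 shared site lay at the end of the gene, 0.184 kb away, and was the only AML site of the set within 1 kb of a gene end. The 2 AML-only sites lay 1.20 kb upstream and 24.8 kb downstream.

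Kcng3, whose product modifies Kv2 channels, had 2 shared sites (6.96 kb from an end in its body and 22.8 kb upstream) and 1 further myeloid site. Kcns3 had 1 shared site, and Kcna4 and Kcng2 had 1 myeloid-only site each. The Kcnc, Kcnd, Kcnf, Kcnh and Kcnv genes were assigned none.

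Auxiliary subunits change the gating or traffic of potassium channels. Of 17 genes, 3 carried AML sites (17.6%, all genes 18.6%) and 7 carried myeloid sites (41.2%, all genes 40.0%). The family had 3 AML sites for 7.39 expected and 13 myeloid sites (6.92 to 22.2) for 20.8 expected. Kcne3, a small subunit of epithelial potassium channels, had 3 myeloid-only sites on chromosome 7 between 100176148 and 100182962, where 0.377 were expected. Of these, 2 covered the pair of starts printed above. Kcnip1 and Kcnip3, calcium sensors that bind Kv4 channels, each had 1 shared site, and Kcnip1 had 1 further myeloid-only site. Kcnmb1, a subunit of the large-conductance channel of smooth muscle, had 1 shared site that also lay inside Kcnip1, in which Kcnmb1 is placed. Kcnip2 had 1 myeloid-only site, 7.0 kb from Oga. Kcnip4 had 2 myeloid-only sites over 90 kb from its ends, and Kcnrg had 3 (1.08 expected), 53.1 to 78.6 kb past its end. The 3 Kcnrg sites lay only slightly farther from the next protein-coding gene (55.7 to 81.1 kb), so their assignment is uncertain.

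GABA-A receptor genes had the lowest share of genes with a myeloid site among families of more than 5 genes. Of 19 genes, 0 had an AML site (all genes 18.6%) and 1 had a myeloid site (5.26%, all genes 40.0%). Their territory gave 12.1 AML and 34.2 myeloid sites expected, against 0 (up to 3.69) and 1 (0.0253 to 5.57) observed. The 1 site lay in the body of Gabrr3, 2.30 kb from its end. Gabra2, Gabra5 and Gabrb2, which encode subunits of GABA-A receptors of the brain, had no site in either list.

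Glutamate receptor genes were assigned single, scattered sites. Of 16 genes, 3 held AML sites (18.8%, all genes 18.6%) and 7 held myeloid sites (43.8%, all genes 40.0%). The group had 3 AML sites (0.619 to 8.77) for 13.6 expected and 7 myeloid sites (2.81 to 14.4) for 38.3 expected. Gria3 had the 1 shared site assigned to the group, 11.6 kb outside an end of the gene. Gria2 had 1 AML-only site and Gria1 1 myeloid-only site. Grik4 was assigned 1 AML-only and 1 myeloid-only site in its body, 10.6 kb apart. Its body held further sites over 100 kb from any gene end. Grik2 (4.04 myeloid sites expected), Grin2a (3.91) and Grin2d each had 1 myeloid-only site in the body. The Grik5 site lay inside Zfp574, a neighbouring gene, 1.32 kb from the end of Grik5.

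Sodium channel genes also had few sites. Of 10 alpha subunit genes, which form the pore, 1 (10.0%, all genes 18.6%) carried an AML site, for 5.94 sites expected. In the myeloid list 3 (30.0%, all genes 40.0%) carried 1 site each, for 16.7 expected. Scn11a, which encodes Nav1.9 of pain-sensing neurons, had 1 shared site 9.65 kb past its end. Scn4a of skeletal muscle and Scn8a (Nav1.6 of brain) had 1 myeloid-only site each. The 4 beta subunit genes had no site, with 0.408 and 1.15 expected.

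**Figure D4:**
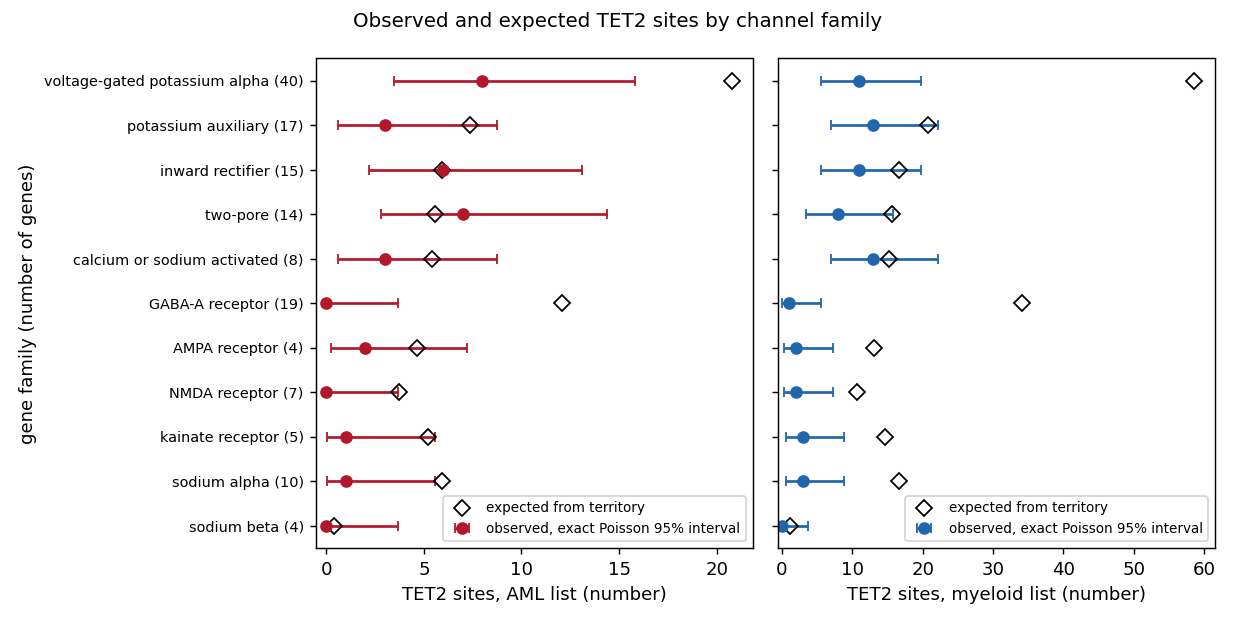
Number of TET2 sites (x axis) observed at the genes of each channel family (points, with exact Poisson 95% intervals) and expected from their territory (open diamonds), in the AML list (left) and the myeloid list (right). The expected number lies above the interval in both lists for voltage-gated potassium channels (20.8 and 58.6 expected), GABA-A receptors (12.1 and 34.2), NMDA receptors (3.75 and 10.6) and sodium channel alpha subunits (5.94 and 16.7), and in the myeloid list also for AMPA and kainate receptors (13.1 and 14.7).

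Potassium channel genes with a known place in leukocytes were also counted as a list. It comprised Kcnn4, Kcna3, Kcnj2, Kcnab2, Kcnk6, Kcnk13, Kcnk5 and Kcnh2, and it was written from background knowledge with earlier results of these data known, so its counts are a description and support nothing. The 8 genes had 9 AML sites (2.63 expected) and 18 myeloid sites (7.41 expected). The other 135 genes had 22 AML sites (74.5 expected) and 49 myeloid sites (210 expected), although some of them, such as Kcne3 and Kcnn1, also had more myeloid sites than their territory gave. Within the list 3 genes (37.5%) had a site in the AML list and 5 (62.5%) in the myeloid list, against 18.6% and 40.0% of all genes. Of the other 135 genes, 18 (13.3%) and 34 (25.2%) had one. No site was assigned to Kcnab2, Kcnk6 or Kcnh2. Kcnk6 has a small territory (0.165 myeloid sites expected). At Kcnab2, which encodes a cytoplasmic beta subunit of Kv1 channels, the count of 0 came from the assignment. Its body held 2 myeloid-only sites, 1 of them over the internal start printed above, but both lay slightly nearer to an end of Nphp4 (28.0 against 28.9 kb, and 18.8 against 19.7 kb). Nphp4 was named after these values were seen.

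Sites at the channel and receptor genes were shared between cultures at rates whose intervals included those of all sites. Of the 31 AML sites, 22 overlapped a myeloid site by at least 1 bp (71.0%, exact interval 52.0 to 85.8), against 72.6% of all assigned AML sites. These were 32.8% of the 67 myeloid sites (21.8 to 45.4), against 25.8% of all. Shared sites were spread over 17 genes, or 11.9% (all genes 14.6%). Of the sites found in 1 list, 9 were AML-only and 45 myeloid-only, so that AML-only sites made up 16.7% of these, against 11.6% over all genes. Of the 9 AML-only sites, 3 lay more than 20 kb from the nearest myeloid site at Gria2, Kcnk2 and Kcna3 (451, 33.1 and 23.9 kb).

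Few of the sites at these genes lay at a gene end. Only 1 AML site (3.23%, 0.0816 to 16.7) and 6 myeloid sites (8.96%, 3.36 to 18.5) lay within 1 kb of a gene end, against 9.99% and 24.8% of all assigned sites. The AML interval includes the value of all sites, and the myeloid interval does not. By gene, 0.699% of the set had an AML site at an end (all genes 2.74%) and 4.20% a myeloid site at an end (all genes 18.6%). The 6 genes of the myeloid list included Kcna3, Kcne3, Kcnj2, Kcnn4 and Kcnu1, and none was a GABA, glutamate or sodium channel gene. The median distance was 22.8 kb in the AML list and 11.5 kb in the myeloid list, against 13.0 and 7.56 kb for all assigned sites. Longer genes also leave more sequence far from any end, and this was not adjusted for here.

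In the AML list 12 sites lay in the body of the gene itself and 18 between genes. In the myeloid list 34 lay in the body of the gene itself, 1 in that of another gene and 26 between genes. Widths had medians of 706 bp (AML) and 701 bp (myeloid) against 721 and 711 bp over all assigned sites.

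**Figure D5:**
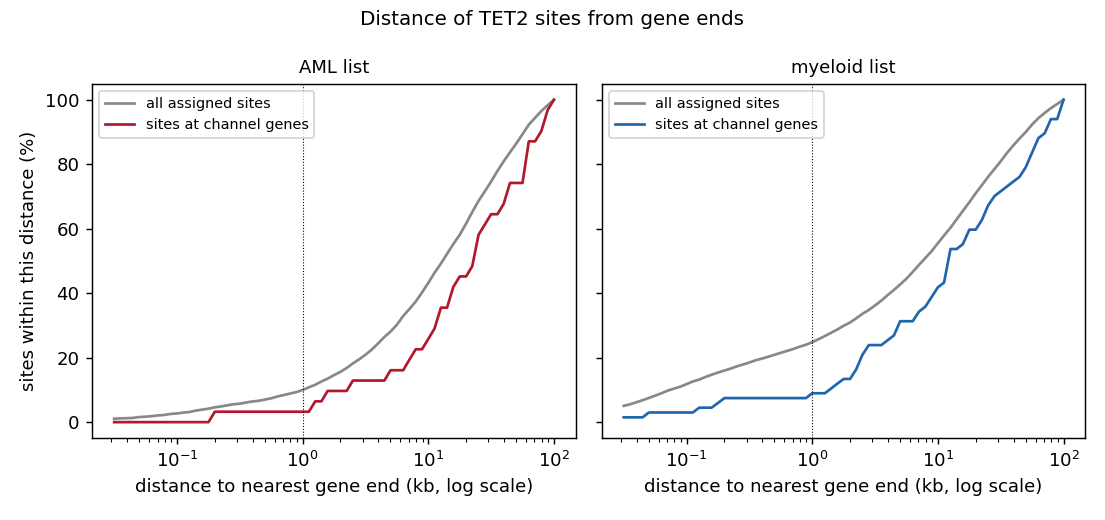
Cumulative share of sites (%) by distance from the site midpoint to the nearest gene end (kb, log scale), for all assigned sites (grey) and those at channel and receptor genes (coloured), by list, with a dotted line at 1 kb. At 1 kb the coloured curves stand at 3.23% and 8.96% and the grey curves at 9.99% and 24.8%.

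Other channel and receptor genes, written down as a second list, lay as a whole nearer to the level of all genes. Of 80 such genes, 15 were bound in the AML list (18.8%, all genes 18.6%) and 30 in the myeloid list (37.5%, all genes 40.0%). They had 19 AML sites (11.4 to 29.7; 35.2 expected) and 57 myeloid sites (43.2 to 73.9; 99.0 expected). Calcium channel genes (Cacn) resembled the set, with 4 AML and 13 myeloid sites at 26 genes (13.0 and 36.5 expected). P2X receptors are channels opened by extracellular ATP, and several are known from leukocytes. Their 7 genes had 3 AML and 14 myeloid sites (7.65 to 23.5) where 0.705 and 1.99 were expected, among them P2rx7 with 5 myeloid sites and P2rx4 with 1 AML and 3 myeloid sites. The 2 GABA-B receptor genes (Gabbr) had 4 AML sites (1.09 to 10.2) for 0.942 expected and 5 myeloid sites (1.62 to 11.7) for 2.65 expected. The 7 Clcn genes had 3 AML and 8 myeloid sites, where 1.57 and 4.42 were expected. Every other family of this second list had fewer sites than expected in both lists.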

How the data were processed

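TET2 ChIP-seq was done in 8 libraries of mouse AML and immortalized myeloid cultures, with 4 input and IgG libraries. Per the labels' protocols, cells were crosslinked with 2 mM disuccinimidyl glutarate and 1% formaldehyde, and chromatin was sheared to 200 to 500 bp. Trimmomatic, Bowtie2, MACS2 and the mm10 build are named in the submitters' processing notes. Versions, thresholds, pooling and the role of the control libraries were not given in the sources used here. Per the file headers, the deposited lists hold only the chromosome, start and end of each site. Whether starts count from 0 or 1 is not stated, so positions may be off by 1 bp.

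Sites of a list that overlapped were merged (106 AML and 884 myeloid sites fell away), and 1 AML site outside the assembled chromosomes was dropped. Genes came from a RefSeq table of GRCm38.p6, which shares its chromosome coordinates with mm10. Each site went to the gene with the nearest start or end within 100 kb. Expected numbers are a gene's share of all territory times the assigned sites, which assumes an even spread. Intervals are exact (Poisson for counts, Clopper-Pearson for shares, 95%) and cover counting error only. The limit for promoter windows under AML sites is approximate. The balance between lists was tested by Fisher's exact test per gene with at least 5 unshared sites and Benjamini-Hochberg adjustment. The assignment and the test were checked on simulated data. Python 3.11.15, pandas 2.3.3 and scipy 1.17.1 were used.

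The genes of the set and all lists were chosen with earlier results of these data known. Any gene of the set with a site could be named, and in full the 25 with most sites, those with a site at an end, those with AML-only sites and the leukocyte list. Some genes that this rule takes are not reported here by name but are in all counts. The site lists hold no value per library, so no comparison of wild-type with knockout was made.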

Additional observations from a re-analysis of the deposited data

How the results depend on the processing

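With an assignment limit of 20 kb in place of 100 kb, 13 channel and receptor genes had an AML site (9.09%, all genes 13.5%) and 27 a myeloid site (18.9%, all genes 35.1%). The sites fell to 14 AML and 40 myeloid, and 13 of the AML sites were shared. A gene end of 2 kb in place of 1 kb took in 3 AML sites in place of 1. When noncoding genes and pseudogenes competed for sites, 15 and 27 genes had a site (10.5% and 18.9%, all protein-coding genes 12.7% and 33.0%). Genes left with no site in that setting included Kcnk13, Kcnip3, Kcns3 and Scn11a in both lists and Kcnrg in the myeloid list. Every other alternative stayed within 1.5 times the reported count: no limit, unmerged sites, gene body first, nearest edge of the site, a larger minimum overlap (0.5 of the AML site) or a gap of up to 1 kb, a gene end of 0.5 kb, and, added after the data were seen, leaving out the leukocyte list or Kcnj2. Fisher's exact test per gene found 0 genes of the set with an adjusted p under 0.05, also with 3 unshared sites as the minimum (1451 genes). At that minimum 1 gene of the set, Kcnk10, had an unadjusted exact p under 0.05 (0.0371, adjusted 0.873). No paired analysis was possible because the lists hold no value per library, and for the same reason no replicate could be left out.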

Other observations

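Several long channel genes carried TET2 sites that the nearest-end assignment gave to no gene or to a neighbour. The bodies of the 143 genes held 20 AML and 49 myeloid sites, counted once for each gene that contains them. Of these, 4 and 6 were over 100 kb from any gene end and 4 and 8 lay nearer to an end of another gene. The shared site inside both Kcnmb1 and Kcnip1 was thus counted for both genes, for Kcnip1 as nearer to another gene. Kcnh7, a voltage-gated potassium channel gene, had 4 AML and 3 myeloid sites in its body, and 2 of each were shared. All but 1 AML site lay nearer to an end of Gca, which encodes grancalcin, a calcium-binding protein of neutrophils, at 12.4 to 52.5 kb. Kcnq3 had 1 shared site 117 kb from its ends. Grik4 had a further shared site 156 kb from its ends and a further myeloid-only site 110 kb from them. Kcnq1 had 1 AML-only site, and Kcnq5 and Kcnn2 had 1 and 2 myeloid-only sites, at least 100 kb from any gene end. Single myeloid-only sites inside Grin1 and Grin3a lay as near or nearer to Lrrc26 and Ppp3r2. The neighbours Gca and Lrrc26 were named after these values were seen. When a site inside a gene went to that gene first, 24 genes of the set had an AML site (16.8%, all genes 18.8%) and 44 a myeloid site (30.8%, all genes 40.0%).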
